A study of Polyandrocarpa zorritensis and Clavelina lepadiformis with 36 samples.

Results

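The insulin receptor (INSR), the insulin receptor substrate (IRS1) and the MAP kinase-interacting kinase MKNK2 were followed through the life stages of 2 clonal tunicates, *Polyandrocarpa zorritensis* and *Clavelina lepadiformis*. The ortholog pairs were those whose transcript in either species had INSR_HUMAN, IRS1_HUMAN or MKNK2_HUMAN as its best protein match. This gave 3 of the 4424 pairs in the deposited table, 1 for each name, and each pair had the same name in both species. Together with every other transcript of the same Trinity gene, a Trinity gene being a group of assembled transcripts taken to come from 1 locus, there were 4 transcripts in *P. zorritensis* and 6 in *C. lepadiformis*. A best match does not separate the insulin receptor from its relatives IGF1R and INSRR, or IRS1 from IRS2, so the names stand for the nearest human protein only.

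The insulin receptor is a tyrosine kinase of the cell surface that is switched on by insulin and insulin-like growth factors. Insulin receptor substrates are docking proteins that the receptor phosphorylates, and they pass the signal to phosphoinositide 3-kinase (PI3K) and Akt, which promote glycogen storage and growth through TOR and keep FOXO factors out of the nucleus. A second branch runs through Ras and ERK to the MNK kinases, which bind the scaffold eIF4G and phosphorylate the cap-binding protein eIF4E. In nematodes and some insects, weak insulin signaling is part of the entry into resting stages.

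RNA was sequenced from 18 samples of each species. Zooids (the feeding adults), stolons (vessels that grow along the substrate), pre-buds (budding nests of *P. zorritensis* and budding chambers of *C. lepadiformis*) and dormant tissue (spherules of *P. zorritensis* and winter buds of *C. lepadiformis*) had 3 samples each. Germinating tissue had 6 samples per species, 3 at 18 °C and 3 at 24 °C, all taken at 48 h and combined by the authors. Each sample pooled tissue of 3 or more specimens. Spherules of *P. zorritensis* were frozen in the field in spring, while the zooids, stolons and pre-buds of this species were grown in the lab from the same rope, so dormancy and collection in the field cannot be told apart. All material of *C. lepadiformis* came from 1 colony in the lab. The labels name no drug, transgene or mutation.

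Each value is a stage mean made by the authors from TPM (transcripts per a fixed total, a level per length of transcript) after TMM scaling between libraries. Since a stage has 1 mean, its replicate spread is unknown. Levels are therefore given without an error, no test between stages was possible, and no order between neighbouring stages can be set against its replicate error. The depth of each sample is unknown. In *P. zorritensis* a stage summed to 687867 for zooids and 1570747 for spherules, and the 100 highest transcripts held 60.6% of the spherule sum and at most 48.8% of any other. In *C. lepadiformis* the sums lay between 741785 for stolons and 1274782 for germinating tissue. As a check of the zooid label, the 4 tektin pairs, proteins of ciliary microtubules, summed to 189 in zooids and at most 5.33 elsewhere in *P. zorritensis*, and to 192 and at most 2.03 in *C. lepadiformis*. Markers of the other stages were not checked.

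INSR of *P. zorritensis* had its lowest mean in zooids and its highest in spherules as deposited, or in stolons when stages were rescaled to equal sums. Its single transcript (TRINITY_DN5257_c0_g1_i3) had a mean of 3.21 in zooids, 9.84 in pre-buds, 12.0 in stolons, 16.7 in dormant tissue and 10.8 in germinating tissue. The zooid stood apart from the other 4 tissues, among which the highest mean was 1.70 times the lowest. Within a stage, the rank of a transcript does not depend on the scaling of that stage. It places a transcript only relative to all others, so it cannot decide between the scalings. INSR stood at the 29.9th percentile of all 27938 transcripts in zooids, at the 68.9th in pre-buds, the 72.4th in stolons, the 79.7th in dormant tissue and the 71.6th in germinating tissue. In whole tissue, fewer cells that carry a transcript and less of it per cell cannot be told apart.

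The INSR gene of *C. lepadiformis* had 2 transcripts with different profiles. The transcript in the ortholog pair (TRINITY_DN250_c0_g1_i32) had a mean of 16.7 in zooids, 14.6 in pre-buds, 20.3 in stolons, 23.5 in dormant tissue and 26.5 in germinating tissue, a span of 1.82-fold, with winter buds highest in place of germinating tissue at equal sums. The other transcript, i3, was the larger one and had 70.1 in zooids, 209 in pre-buds, 242 in stolons, 174 in dormant tissue and 169 in germinating tissue. It made up 80.8% of the summed value of the gene in zooids and 86.4% to 93.5% in the other tissues. The pair transcript was thus the minor form in every stage, and it had its lowest mean in pre-buds, where the larger form had its second highest.

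IRS1 was likewise highest in spherules as deposited, or in pre-buds at equal sums, and the IRS1 of *C. lepadiformis* was low in pre-buds and zooids and, as deposited, at like levels in the other 3 tissues. Its single transcript in *P. zorritensis* (TRINITY_DN3990_c0_g1_i10) had a mean of 14.1 in zooids, 27.9 in pre-buds, 20.0 in stolons, 44.4 in dormant tissue and 27.9 in germinating tissue. Dormant tissue was 1.59 times the next stage, and pre-bud and germinating tissue were nearly equal. In *C. lepadiformis* (TRINITY_DN4314_c0_g1_i6) the means were 5.61 in zooids, 3.07 in pre-buds, 17.8 in stolons, 15.8 in dormant tissue and 17.0 in germinating tissue. The stolon mean was 5.81 times the pre-bud mean, the widest span of the 3 pair transcripts in this species. By rank among the 18610 transcripts, IRS1 stood at the 37.8th percentile in zooids and the 30.2nd in pre-buds, against the 73.8th in stolons, the 72.3rd in dormant tissue and the 73.9th in germinating tissue.

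MKNK2, a kinase of the MNK family, was the most abundant of the 3 genes in *P. zorritensis* and had its lowest mean there in germinating tissue under both scalings. The pair transcript (TRINITY_DN6419_c0_g1_i3) had a mean of 111 in zooids, 209.7 in pre-buds, 235 in stolons, 253 in dormant tissue and 89.3 in germinating tissue. Pre-bud, stolon and dormant tissue lay within 1.20-fold of each other as deposited, and germinating tissue was at 0.354 times the dormant mean. In ppm of the stage sum these tissues were further apart, with 291 in stolons, 226 in pre-buds, 161 in spherules, 161 in zooids and 85.9 in germinating tissue. A second transcript of this gene, i1, had 31.8 in dormant tissue and 1.79 in zooids, 1.05 in pre-buds, 3.76 in stolons and 1.68 in germinating tissue. It held 11.2% of the summed value of the gene in dormant tissue and 0.497% to 1.85% elsewhere.

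In *C. lepadiformis* the 3 transcripts of the MKNK2 gene kept to one profile. The pair transcript (TRINITY_DN2799_c0_g1_i2) had a mean of 34.4 in zooids, 26.6 in pre-buds, 73.3 in stolons, 44.6 in dormant tissue and 67.3 in germinating tissue. The transcript i3 had 96.8, 72.0, 227, 154 and 175 in the same order of stages, and i6 had 92.8, 93.3, 200.5, 145 and 198. All 3 were highest in stolons, then in germinating and then in dormant tissue. At equal sums the pair transcript was still highest in stolons, with dormant above germinating tissue. Their shares were steady, with the pair transcript at 13.0% to 15.4% of the summed value in every stage.

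**Figure D1:**
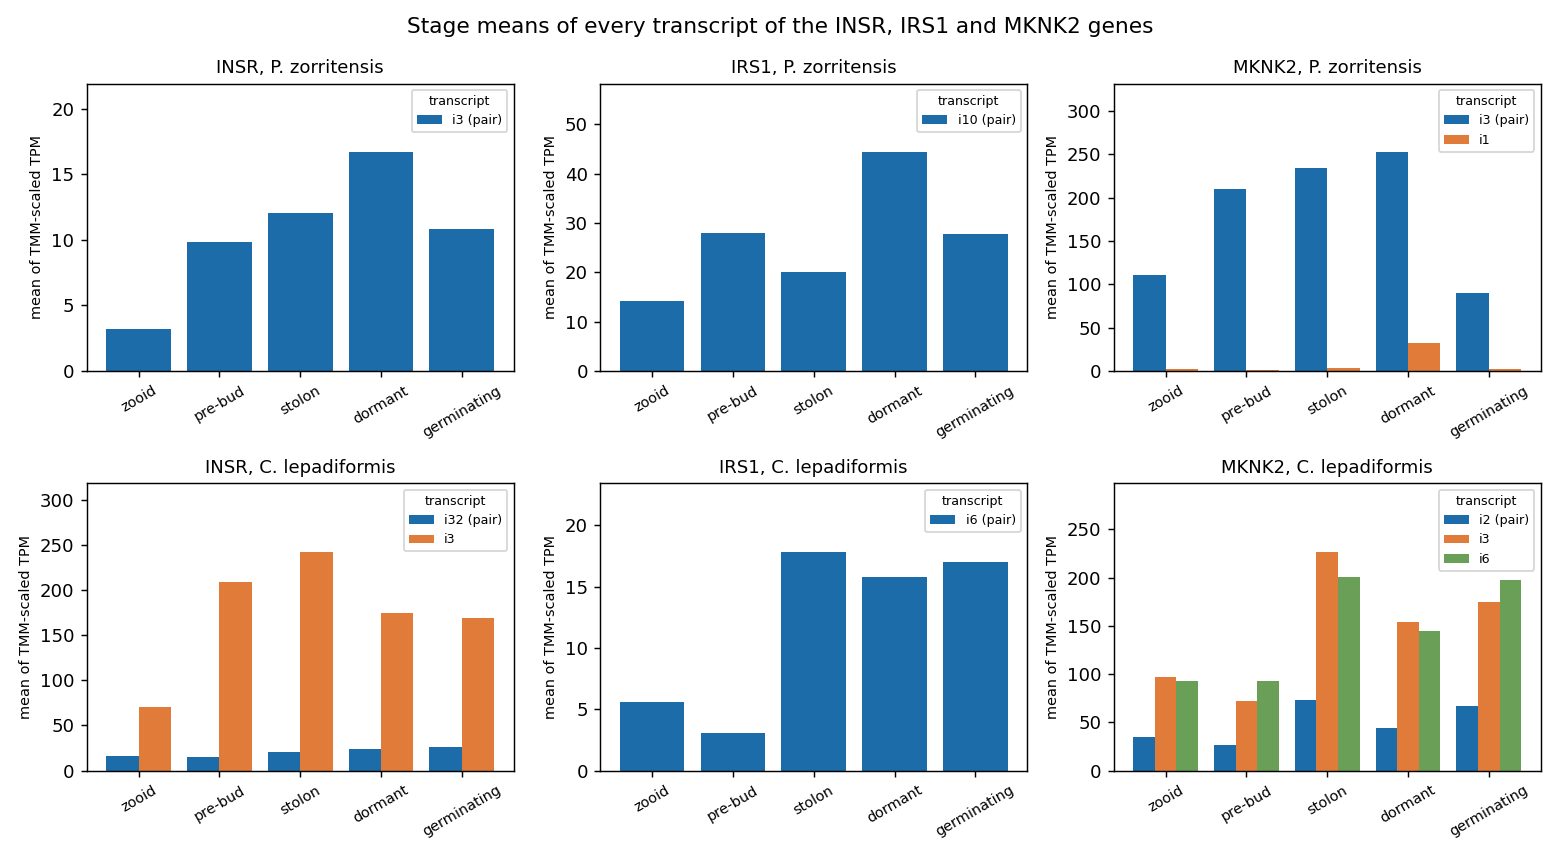
Stage means (TMM-scaled TPM, linear axis from 0) of each transcript of the 3 genes in *P. zorritensis* (top) and *C. lepadiformis* (bottom). Each bar is 1 mean with no error, and blue bars are the transcripts of the ortholog pairs. In *P. zorritensis* every pair transcript is highest in spherules, at 16.7, 44.4 and 253, which holds for none of them at equal sums, while in *C. lepadiformis* the IRS1 and MKNK2 pair transcripts are highest in stolons, at 17.8 and 73.3.

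**Figure D2:**
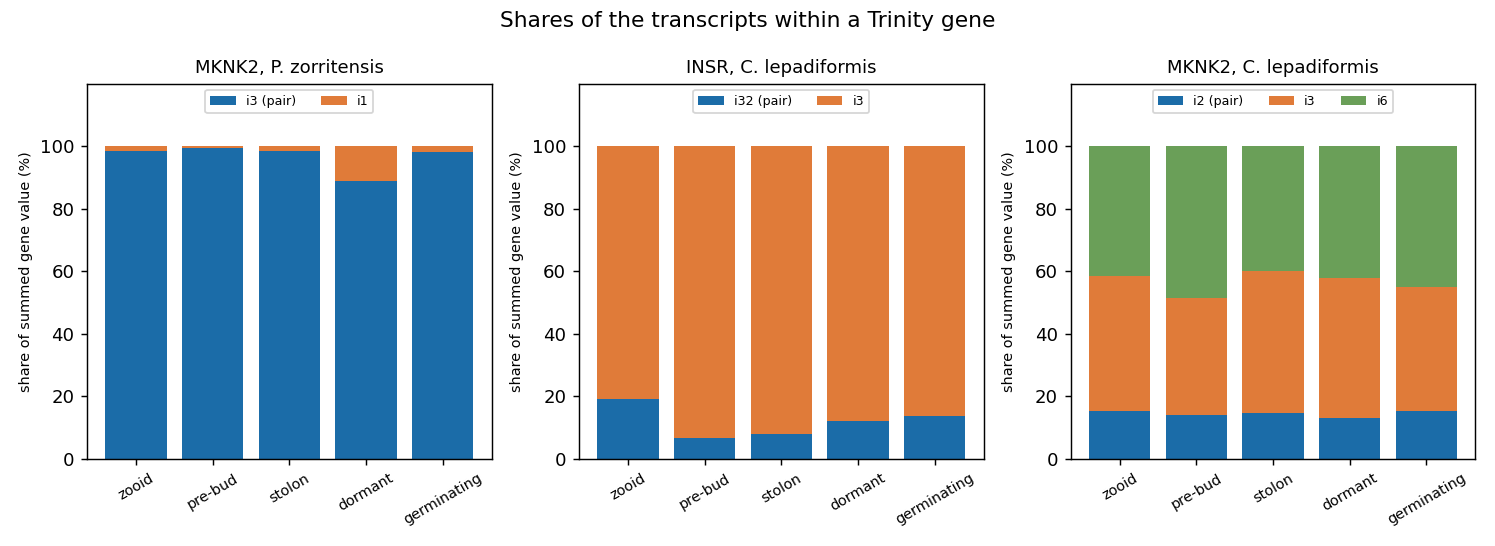
Share of each transcript (percent) in the summed value of its Trinity gene, by stage, for the 3 genes with more than 1 transcript, with the pair transcript in blue. The MKNK2 transcript i1 of *P. zorritensis* reaches 11.2% in dormant tissue, and the INSR pair transcript of *C. lepadiformis* is largest in zooids at 19.2%. Transcripts of a gene share sequence, so this division of reads is an estimate of the quantifier.

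The study set dormant tissue against the other life stages, and the same contrasts were taken here as differences in log2(mean + 1), a scale that understates differences of low transcripts. A transcript was counted as past 2-fold where this difference was at least 1 in either direction and the higher stage had a mean of at least 5. All 3 pair transcripts could be counted in every contrast of both species. INSR in zooids of *P. zorritensis* and IRS1 in pre-buds of *C. lepadiformis* were below 5 and passed this minimum through dormant tissue. Every pair in the deposited table carries a call of the authors in both species, so paired transcripts are a set already chosen for differing between stages, and the share of paired transcripts past 2-fold is given as the background, with the share of all transcripts after it.

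Against zooids of *P. zorritensis*, 3 of 3 pair transcripts were past 2-fold higher in dormant tissue, where 12.7% of paired and 19.9% of all transcripts were. In the other direction, with 0 members, 32.7% of paired and 27.7% of all transcripts were past 2-fold. The differences were 2.07 for INSR, 1.59 for IRS1 and 1.18 for MKNK2, and the transcripts lay at the 96.9th, 93.5th and 89.8th percentile of the paired transcripts. Against pre-buds 0 of 3 were past 2-fold higher, with a background of 8.46% and 16.8%, and 0 were lower (15.7% and 16.3%). The differences were 0.71, 0.65 and 0.27. Against stolons only IRS1 was past 2-fold, at 1.11 with a background of 16.3% and 19.2% higher, and 18.6% and 22.5% lower, beside 0.44 for INSR and 0.11 for MKNK2. Against germinating tissue only MKNK2 was, at 1.49 with a background of 5.96% and 14.4% higher, and 15.0% and 12.7% lower, beside 0.58 for INSR and 0.65 for IRS1. MKNK2 lay at the 97.7th percentile of the paired transcripts in this contrast.

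These differences of *P. zorritensis* rest on the TMM scaling. When the stages were rescaled to equal sums, the median difference of all transcripts moved from -0.15 to -1.37 against zooids, from -0.02 to -0.79 against pre-buds, from -0.02 to -1.01 against stolons and from 0.02 to -0.59 against germinating tissue. Under that scaling, INSR against zooids was 1.04, IRS1 was 0.44, and MKNK2 reached zero, at -0.0031, so that only INSR stayed past 2-fold. The differences against stolons became -0.45 for INSR, 0.18 for IRS1 and -0.85 for MKNK2, and the call of IRS1 was also lost with a pseudocount of 5, at 0.98. Against pre-buds they were 0.0069 for INSR, -0.085 for IRS1 and -0.49 for MKNK2. Against germinating tissue they were 0.030 for INSR and 0.075 for IRS1, and MKNK2 had 0.90, short of 2-fold. Relative to the median transcript the 2 scalings have to give like values, because rescaling shifts all transcripts of a stage alike. Only the pseudocount and the minimum mean can part them, so these values are no check of the scaling. INSR exceeded the median difference against zooids by 2.22 as deposited and by 2.41 at equal sums, IRS1 by 1.73 and 1.81, and MKNK2 by 1.33 and 1.37. Against germinating tissue MKNK2 exceeded it by 1.46 and 1.49.

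In *C. lepadiformis*, only IRS1 had a pair transcript past 2-fold in any contrast with dormant tissue. Against zooids its difference was 1.35, where 10.4% of paired and 16.8% of all transcripts were past 2-fold higher (27.3% and 22.5% lower), and INSR and MKNK2 had 0.47 and 0.36. With a pseudocount of 5 the value of IRS1 was 0.97, short of 2-fold. Against pre-buds IRS1 had 2.05, where 4.61% and 7.85% were higher (6.04% and 7.81% lower), and lay at the 99.5th percentile of the paired transcripts, while INSR and MKNK2 had 0.66 and 0.72. Against stolons no pair transcript was past 2-fold, with 1.42% of paired and 3.57% of all transcripts higher, and 4.52% and 5.51% lower. The differences were 0.20 for INSR, -0.16 for IRS1 and -0.71 for MKNK2, the last at the 8.13th percentile. Against germinating tissue the 3 values were -0.16, -0.10 and -0.58, with a background of 6.32% and 7.25% higher, and 5.56% and 9.22% lower. At equal sums these last 3 turned to 0.47, 0.52 and 0.06, where the median of all transcripts was 0.65. Relative to that median they were -0.18, -0.13 and -0.58, values that rescaling can hardly alter.

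For INSR of *C. lepadiformis* the choice of transcript decided the contrast. Summed over both transcripts, dormant tissue was past 2-fold above zooids, at 1.18, and stood at -0.18 against pre-buds and -0.41 against stolons. The sum for MKNK2 had 0.62 against zooids, 0.84 against pre-buds, -0.54 against stolons and -0.36 against germinating tissue. In *P. zorritensis* the sum for MKNK2 had 1.33, 0.43, 0.25 and 1.63.

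**Figure D3:**
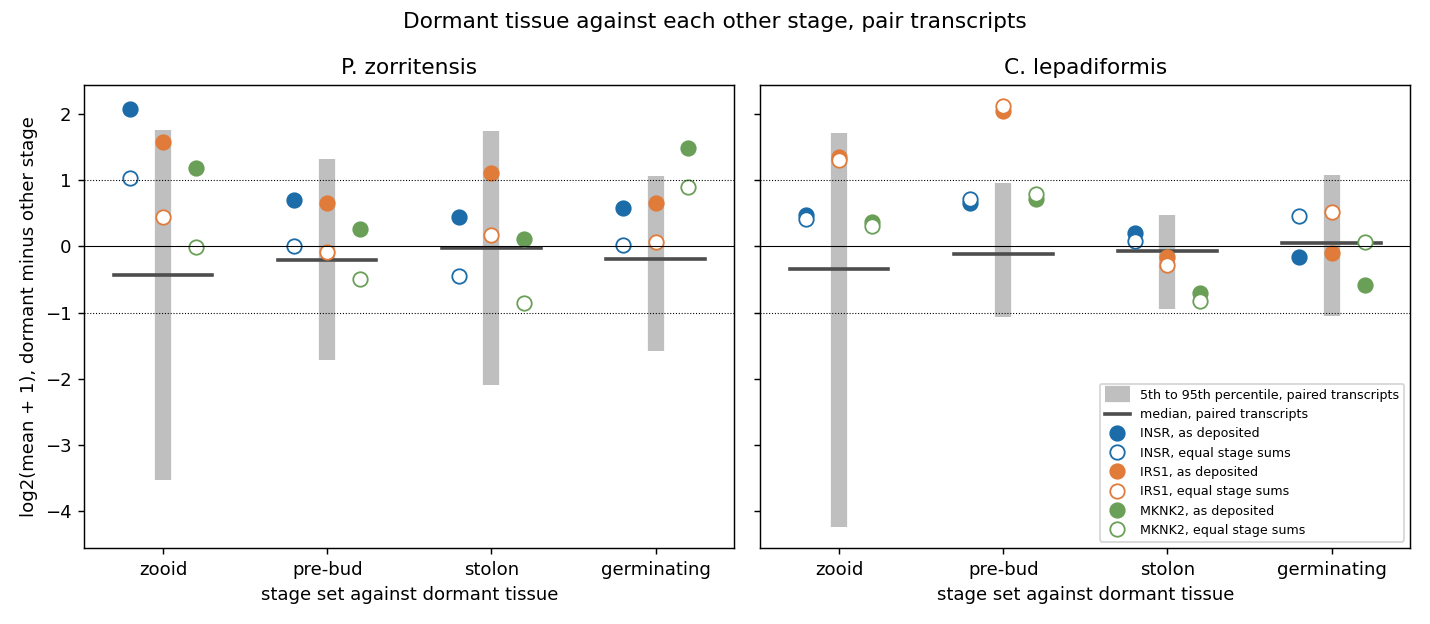
Difference in log2(mean + 1) of dormant tissue minus each other stage for the pair transcripts of INSR, IRS1 and MKNK2, as deposited (filled) and with stages rescaled to equal sums (open). Grey bars run from the 5th to the 95th percentile of paired transcripts as deposited, black lines are their median, and dotted lines mark 2-fold. Filled and open points of *P. zorritensis* lie apart in every contrast, such as 1.18 and -0.0031 for MKNK2 against zooids, while in *C. lepadiformis* they separate mainly against germinating tissue.

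Ratios between the pair transcripts within a stage are free of the scaling of that stage. In *P. zorritensis* the level of IRS1 was 4.40 times that of INSR in zooids, 2.84 in pre-buds, 1.66 in stolons, 2.66 in dormant tissue and 2.57 in germinating tissue. The ratio of MKNK2 to INSR was highest in zooids at 34.5, and it was 21.3 in pre-buds, 19.5 in stolons, 15.1 in dormant tissue and 8.25 in germinating tissue. In *C. lepadiformis* IRS1 stood below the INSR pair transcript in every stage, at 0.336 times its level in zooids, 0.211 in pre-buds, 0.879 in stolons, 0.672 in dormant tissue and 0.643 in germinating tissue. MKNK2 to IRS1 was lowest in germinating tissue of *P. zorritensis* at 3.21 and in dormant tissue of *C. lepadiformis* at 2.82. The 3 profiles were also compared over the 10 stage means of both species, centred within each species. Pearson's r was 0.705 for INSR and IRS1, 0.607 for INSR and MKNK2 and 0.696 for IRS1 and MKNK2. These points share their libraries and scaling, and r was not computed at equal sums, so it is given as a description.

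The rest of the insulin pathway was taken from a list of 152 human entry names in 12 roles, of which 38 were found among the pairs. The pairs with a listed name numbered 36, including the 3 described above, and 30 of them had a listed name in both species. The 10 entries for ligands matched no pair and were not analysed here. In *P. zorritensis*, 5 of 35 pairs that passed the minimum were past 2-fold higher in dormant tissue than in zooids and 2 were lower, beside 12.7% and 32.7% of paired transcripts. Against pre-buds 2 were higher and 3 lower of 33 (background 8.46% and 15.7%), against stolons 5 and 3 of 34 (16.3% and 18.6%), and against germinating tissue 2 and 2 of 32 (5.96% and 15.0%). At equal sums these counts were 1 and 17 (2.67% and 68.5% of paired transcripts at that scaling), 0 and 11 (2.62% and 45.2%), 1 and 13 (3.68% and 49.1%), and 0 and 5 (1.95% and 37.2%). The median difference of the list was 0.14 against zooids, 0.18 against pre-buds, 0.11 against stolons and 0.22 against germinating tissue, beside -0.43, -0.21, -0.02 and -0.19 over paired transcripts.

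In *C. lepadiformis*, 6 of 33 pairs of the list were past 2-fold higher in dormant tissue than in zooids and 0 were lower, beside 10.4% and 27.3% of paired transcripts. Against pre-buds 3 were higher and 0 lower (background 4.61% and 6.04%), against stolons 1 and 0 (1.42% and 4.52%), and against germinating tissue 2 and 1 (6.32% and 5.56%), which became 10 and 0 at equal sums, where 30.0% and 1.33% of paired transcripts were. The median of the list was 0.31, 0.28, -0.02 and 0.24 in the same order, beside -0.34, -0.12, -0.08 and 0.06 over paired transcripts. No replicate test stands behind these counts. Values of single pairs below are as deposited, with the range over the other 4 stages. Rescaling to equal sums lowers all spherule values together, so a pair lowest in spherules as deposited has to stay lowest there. The highest mean was in spherules for 16 pairs as deposited, beside 19.0% of paired transcripts. At equal sums this held only for GYS1, and the share of paired transcripts was not computed.

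Among the adaptors, IRS1 had the largest dormancy score in *P. zorritensis*, and IRS1 and SH2B1 had the largest in *C. lepadiformis*. A dormancy score is log2(mean + 1) in dormant tissue minus the average of the other 4 stages, and IRS1 had 1.00 and 0.78 in the 2 species, or 0.15 and 0.92 at equal sums. SH2B1, which binds the activated receptor, had 7.59 in spherules against 4.69 to 8.34, and its *C. lepadiformis* partner, which has no human name, had 21.9 in winter buds, 24.0 in stolons and 17.9 in pre-buds, but 6.88 in zooids and 7.49 in germinating tissue. GRB2, the adaptor that leads to Ras, had 162 in spherules against 78.0 to 118, and winter buds had 73.0 against 59.4 to 88.3. CRKL, a further SH2 adaptor, had 9.51 against 8.25 to 12.6, and 19.1 against 13.0 to 22.8.

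Of the inhibitors, the pair named GRB14 in *P. zorritensis* and GRB7 in *C. lepadiformis* showed the widest span in *C. lepadiformis*. GRB14 is an adaptor that binds and inhibits the receptor, and GRB7 is a related adaptor. The spherule mean of this pair was 14.5 against 15.1 to 22.2. The *C. lepadiformis* transcript had 13.4 in zooids, 27.0 in pre-buds, 57.4 in stolons, 86.7 in dormant tissue and 188 in germinating tissue. CBL, a ubiquitin ligase of receptor kinases, had 3.64 in spherules against 4.49 to 5.90, with a dormancy score of -0.46. Its *C. lepadiformis* transcript had 3.21 in winter buds against 1.09 to 3.98, with a score of 0.43. All means of CBL in *C. lepadiformis* lay below the minimum mean, so none of its contrasts could be counted there. IDE, the protease that degrades insulin, had the lowest score of the list in *P. zorritensis*, with a mean of 3.81 in spherules, 11.9 in zooids, 18.1 in pre-buds, 35.8 in stolons and 12.9 in germinating tissue. Winter buds had 6.47 against 5.70 to 11.9. IDE was past 2-fold lower in all 4 contrasts of *P. zorritensis*, and was the only pair of the list to be so besides IF4G3. In single contrasts 15.0% to 32.7% of paired transcripts were lower, and the share lower in all 4 was not computed.

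In the PI3K branch, PK3CG, the catalytic gamma subunit, had a mean of 38.8 in spherules against 21.9 to 26.1, and its highest mean moved to zooids at equal sums. Its *C. lepadiformis* means were 3.17 in zooids, 8.45 in pre-buds, 18.0 in stolons, 14.3 in dormant tissue and 7.58 in germinating tissue. PK3CB, the beta subunit, had 5.51 against 3.33 to 6.93, and 16.6 against 9.63 to 16.9. P85A, a regulatory subunit of some forms of PI3K, had its lowest mean in spherules (6.27 against 6.45 to 10.4). Its partner had the highest in winter buds (75.8 against 31.7 to 74.7), or in stolons at equal sums. PDPK1, the kinase that activates Akt, had 7.34 in spherules against 7.30 to 12.5, and its *C. lepadiformis* partner, named PDPK2, had 5.98 against 3.23 to 9.33. FOXO1, the transcription factor that Akt holds back, had 7.58 against 8.88 to 13.0, and its partner, named FOXO3, had 13.6 against 7.06 to 18.3.

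In the TOR branch of *P. zorritensis*, MTOR, RPTOR and TSC2 had their lowest means in spherules as deposited. So did 11 of the 36 pairs of the list and 31.4% of paired transcripts. Equal sums cannot change this order, so that rescaling is no check of it. RS6 had its highest mean in spherules as deposited and in pre-buds at equal sums. MTOR had 2.51 in spherules against 3.36 to 5.14, RPTOR, its scaffold, had 3.44 against 4.91 to 5.38, and TSC2, which restrains TOR, had 5.01 against 8.53 to 9.07. RS6, the ribosomal protein phosphorylated by the TOR-dependent kinase S6K, had 2673 against 763 to 1806. LST8, a further subunit of the TOR complex, and TSC1, the partner of TSC2, fall outside the naming rule. They were named after their values were seen, at 6.75 against 3.63 to 6.16 and 5.24 against 3.49 to 4.68. Both were highest in spherules as deposited but lowest there at equal sums, with scores of -0.34 for LST8 and -0.43 for TSC1. In winter buds MTOR had 5.65 against 5.04 to 7.01, RPTOR had 8.65 against 6.78 to 7.90, TSC2 had 4.76 against 3.16 to 4.55, and RS6 had 2229 against 1505 to 4279. None of MTOR, RPTOR and TSC2 was past 2-fold in either species, but not every contrast could be counted. TSC2 of *C. lepadiformis* stayed below the minimum mean of 5 in all stages. In *P. zorritensis* MTOR passed it only against zooids, and RPTOR passed it except against pre-buds. Without the minimum their differences were also short of 2-fold. Of AMPK, the energy sensor that opposes TOR, 2 pairs were named for its gamma subunit AAKG1. The first had 19.7 in spherules against 12.7 to 18.1, and 17.4 in winter buds against 8.85 to 27.9. The second had 38.4 against 17.7 to 23.2 and 13.5 against 8.17 to 16.6. STK11, the kinase that activates AMPK, had 17.4 against 8.08 to 12.4, and 16.5 against 13.5 to 20.2.

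On the side of MNK, both eIF4G scaffolds had their lowest mean in spherules as deposited, where 31.4% of paired transcripts had theirs. Equal sums cannot change this order, so that rescaling is no check of it. IF4G3 had 10.9 in spherules against 23.0 to 33.1, and IF4G2, a related scaffold that does not bind eIF4E, had 4.94 against 9.02 to 17.9. In winter buds IF4G3 had 26.2 against 21.0 to 34.0 and IF4G2 had 25.7 against 18.9 to 24.7. IF4E3, a cap-binding protein of the eIF4E family, had 41.9 in spherules against 35.0 to 71.6, and 45.4 in winter buds against 35.7 to 52.6. In the Ras and ERK branch no pair was past 2-fold against dormant tissue in either species. KSR2, a scaffold of that cascade, had 26.3 against 15.6 to 18.5 and 15.7 against 11.0 to 16.0. SOS2, which loads Ras with GTP, had 5.75 against 3.53 to 5.64, and its partner, named SOS1, had 7.43 against 6.92 to 11.9. MP2K1, the kinase that activates ERK, had 21.7 against 19.8 to 28.3 and 26.6 against 20.7 to 36.3.

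The highest dormancy score of the list belonged to a glycogen gene in each species, GYS1 with 1.41 in *P. zorritensis* and PPR3C with 1.37 in *C. lepadiformis*. GYS1, glycogen synthase, had 15.4 in spherules against 3.17 to 6.25, past 2-fold in all 4 contrasts as deposited. In single contrasts as deposited 5.96% to 16.3% of paired transcripts were higher in spherules, and the share higher in all 4 was not computed. At equal sums spherules stayed highest for GYS1 with a score of 0.62. Its differences against zooids, pre-buds and germinating tissue were then short of 2-fold. GYS1 of winter buds had 24.0 against 17.6 to 29.5. The pair named PPR3C in *P. zorritensis* and PPR3B in *C. lepadiformis*, subunits that bring protein phosphatase 1 to glycogen, had 43.7 in spherules against 26.7 to 32.4. In *C. lepadiformis* it had 10.2 in zooids, 44.9 in pre-buds, 42.7 in stolons, 108 in dormant tissue and 142 in germinating tissue. PP1B, a catalytic subunit of that phosphatase, had 114 against 78.8 to 109.8, and 18.2 against 15.3 to 26.0. At equal sums PPR3C and PP1B of *P. zorritensis* were highest in zooids and lowest in spherules, with scores of -0.31 and -0.49. The *C. lepadiformis* transcript of the PPR3C pair was then highest in winter buds.

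**Figure D4:**
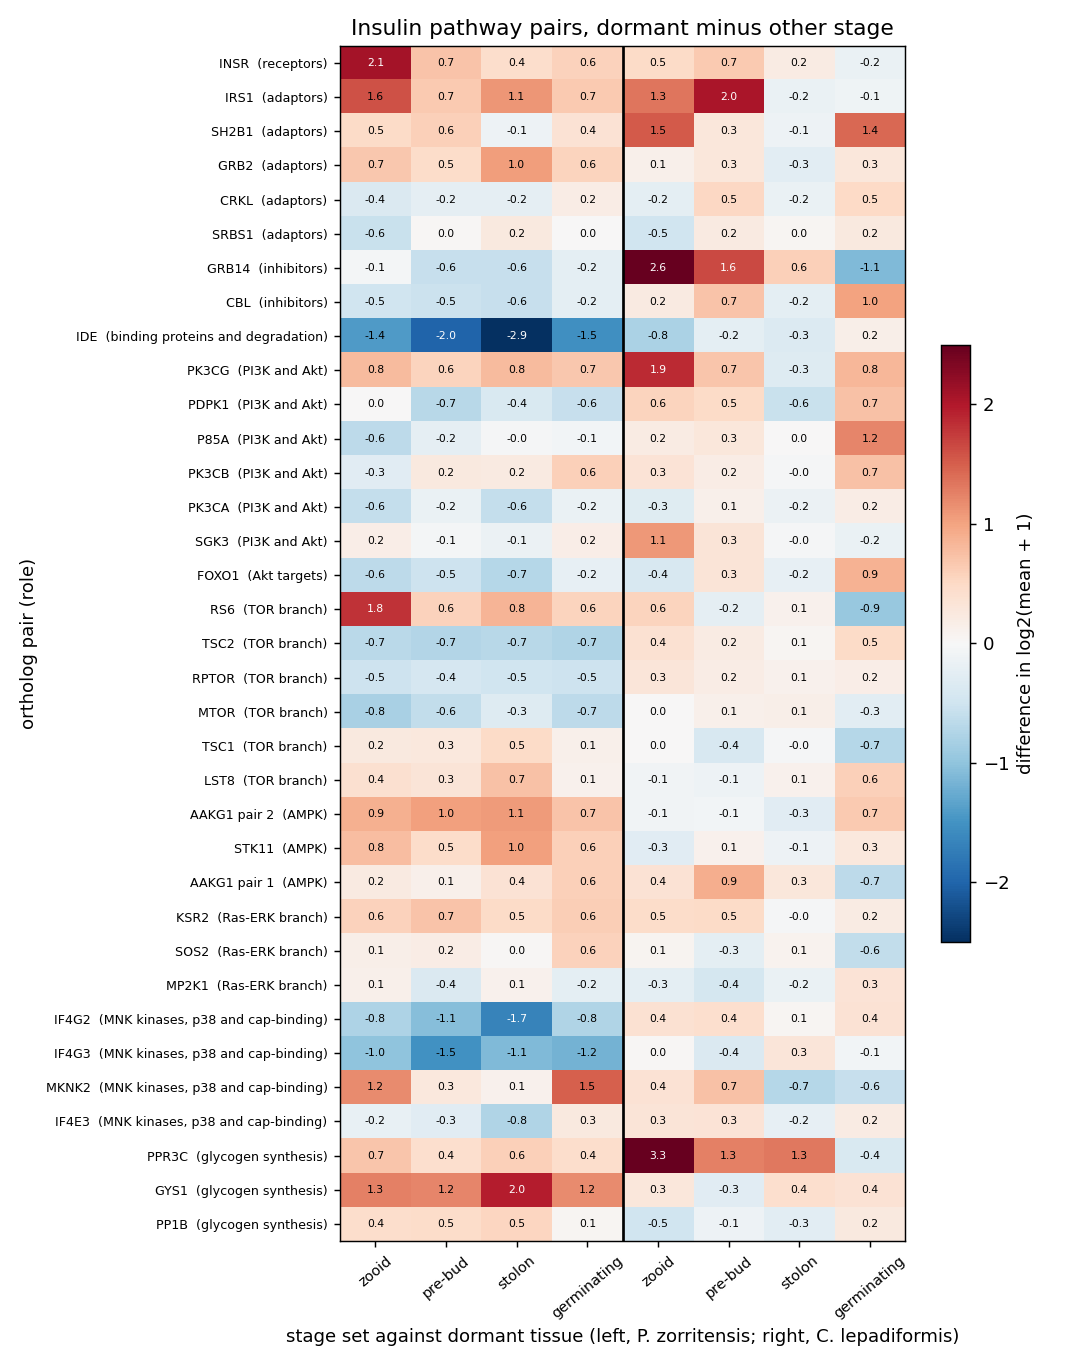
Difference in log2(mean + 1) of dormant tissue minus each other stage (columns) for 35 of the 36 ortholog pairs of the insulin pathway list (lines, named by the listed match and role), with *P. zorritensis* left of the black bar and *C. lepadiformis* right of it. Red is higher in dormant tissue and blue lower, with each value printed. In *P. zorritensis* only GYS1 is past 2-fold higher, and only IDE and IF4G3 past 2-fold lower, in all 4 contrasts as deposited. Other pairs also keep their colour over these contrasts, short of 2-fold in some. In *C. lepadiformis* the contrast with stolons is pale, with a median of -0.02.

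Scores of the 2 species were both above 0 in 13 of the 36 pairs of the list (36.1%), both below 0 in 5, above 0 only in *P. zorritensis* in 6 and only in *C. lepadiformis* in 12. Over all 4424 pairs both were above 0 in 562 (12.7%). At equal sums both were above 0 in 5 pairs of the list (13.9%) and in 194 of all pairs (4.39%). INSR had 0.95 in *P. zorritensis* and 0.29 in *C. lepadiformis*, at the 92.1st and 82.4th percentile of paired transcripts. IRS1 lay at the 92.8th and 96.9th percentile. MKNK2 had 0.76 and -0.05, at the 89.0th and 59.2nd percentile, so its score differed in sign between the species. At equal sums the median score of all pairs moved from -0.32 to -0.92 in *P. zorritensis* and from -0.16 to -0.05 in *C. lepadiformis*, while that of the list moved from 0.11 to -0.65 and from 0.16 to 0.29. The scores became 0.16 and 0.42 for INSR, and -0.11 and 0.08 for MKNK2, so that the sign of MKNK2 turned in both species.

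**Figure D5:**
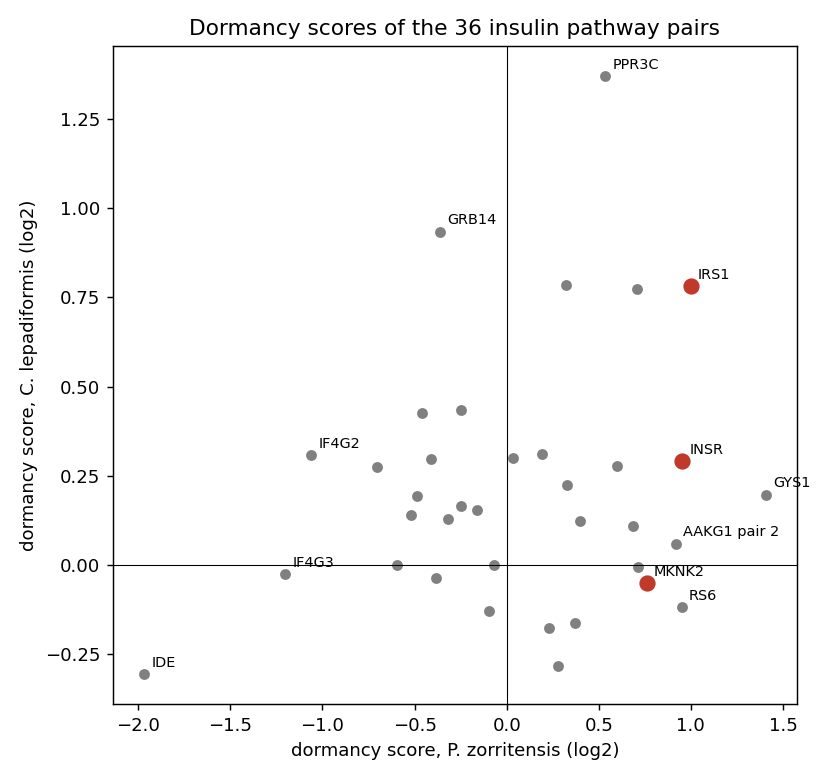
Dormancy scores (log2) of the 36 pairs of the insulin pathway list in *P. zorritensis* (x axis) and *C. lepadiformis* (y axis), each point 1 pair and INSR, IRS1 and MKNK2 in red. INSR and IRS1 are above 0 in both species, at 0.95 and 0.29 and at 1.00 and 0.78, and MKNK2 is at 0.76 and -0.05, signs that turn at equal sums for MKNK2.

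The named pairs whose profile over the 10 centred stage means was most like that of INSR, IRS1 or MKNK2 were found among 3375 pairs with a mean of at least 5 in some stage of both species. Profiles were taken as deposited, and likeness at equal sums was not computed. For INSR the 5 highest were HLF, a PAR bZIP factor (r = 0.885), CO3, complement C3 (r = 0.873), RL4, a protein of the large ribosomal subunit (r = 0.868), S35F6, a solute carrier (r = 0.866), and EF1G, a translation elongation factor (r = 0.861). HLF had 142 in spherules and 41.6 in zooids, and 47.5 in winter buds and 27.6 in zooids. For IRS1 they were CHKA, choline kinase (r = 0.954), DAAF3, a factor of dynein arm assembly (r = 0.927), MILK1 (r = 0.852), PP4P1, a phosphoinositide phosphatase (r = 0.840), and RPH3L (r = 0.837). CHKA had 119 in spherules and 21.4 in zooids. In *C. lepadiformis* CHKA had 93.6 in zooids, 59.3 in pre-buds, 302 in stolons, 198 in dormant tissue and 249 in germinating tissue, low in the same 2 tissues as IRS1. For MKNK2 they were FNIP2, a folliculin-interacting protein (r = 0.848), CSKP (r = 0.833), MAF1, a repressor of RNA polymerase III (r = 0.821), CPNE3, a copine (r = 0.817), and S4A10, a bicarbonate transporter (r = 0.810). FNIP2 had 10.6 in spherules and 5.02 after germination for 48 h. The only pairs at r of 0.9 or more with any of them were 2, both with IRS1, and the median r over the pairs was -0.213 for INSR, -0.194 for IRS1 and -0.217 for MKNK2.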

How the data were processed

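Total RNA of 36 samples was sequenced as paired reads. The authors trimmed the reads (Trim Galore), filtered out those of ribosomal RNA (Bowtie2), built 1 Trinity assembly per species, removed those below 5 TPM, and estimated abundance with Kallisto 0.46.0. The deposited signal values are TPM scaled by TMM factors and averaged by the authors over the replicates of a stage. The pair table, as deposited, gives reciprocal best hits with entry names. Its 4 columns of stages called up or down by the authors with voom were not used beyond checking that all 4424 pairs have entries.

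Differences of log2(mean + 1), scores and ranks were computed with Python 3.11.15, numpy 2.4.6 and pandas 2.3.3, drawn with matplotlib 3.10.9, and checked on simulated data. No test suits 1 mean per stage. Alternatives were pseudocounts of 0.1 and 5, a 1.5-fold threshold, no minimum, stages rescaled to equal sums or to a median log2 ratio of 0, sums over a Trinity gene, and pairs with both names listed. Named genes are INSR, IRS1 and MKNK2 with all transcripts of their Trinity genes, up to 4 pairs per role with the largest absolute dormancy score averaged over species, and the 5 most alike profiles for each. Members and lists were chosen with earlier results of these data known. The list holds 1 pair that enters the counts and medians but is not reported here by name.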

Additional observations from a re-analysis of the deposited data

How the results depend on the processing

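Of 120 recomputed differences of INSR, IRS1 and MKNK2, 103 kept their direction and their side of 2-fold, and of 112 recomputed counts of the list, 81 stayed within 1.5 times. Some of the 120 could not change, namely the sums for genes with 1 transcript (INSR and IRS1 of *P. zorritensis*, IRS1 of *C. lepadiformis*). Rescaling stages to a median log2 ratio of 0 and a pseudocount of 0.1 moved none of them. That rescaling could do little, since stage medians already lay between -0.109 and -0.040 in *P. zorritensis* and between -0.087 and -0.039 in *C. lepadiformis*. The causes of the changes were not tested unless the rescaling itself shows them. Rescaled to equal sums, differences of *P. zorritensis* were -0.45 for INSR against stolons, 0.44, -0.085 and 0.18 for IRS1 against zooids, pre-buds and stolons, and -0.0031, -0.49, -0.85 and 0.90 for MKNK2 against zooids, pre-buds, stolons and germinating tissue. Counted as kept at this scaling were INSR against pre-buds (0.0069) and germinating tissue (0.030) and IRS1 against germinating tissue (0.075), which came close to 0. Differences of *C. lepadiformis* against germinating tissue were 0.47 for INSR, 0.52 for IRS1 and 0.064 for MKNK2. Summed over its transcripts, INSR of *C. lepadiformis* had 1.18, -0.18, -0.41 and 0.017 against zooids, pre-buds, stolons and germinating tissue. With a pseudocount of 5, IRS1 had 0.98 against stolons of *P. zorritensis* and 0.97 against zooids of *C. lepadiformis*.

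Counts of the list in *P. zorritensis* (higher and lower in dormant tissue) at 1.5-fold were 10 and 7 against zooids, 6 and 5 against pre-buds, 9 and 6 against stolons and 9 and 4 against germinating tissue, beside 21.1% and 45.3%, 16.7% and 30.6%, 28.9% and 31.6%, and 15.9% and 30.2% of paired transcripts. At equal sums they were 1 and 17, 0 and 11, 1 and 13, and 0 and 5, where 68.5%, 45.2%, 49.1% and 37.2% of paired transcripts were lower. With a pseudocount of 5, 0 were lower than zooids, 0 higher than pre-buds, 2 higher than stolons, and 1 higher and 1 lower than germinating tissue. In *C. lepadiformis* at 1.5-fold, 1 was lower than zooids (39.0% of paired transcripts), 7 higher than pre-buds (12.8%), 2 higher and 1 lower than stolons (3.54% and 10.9%), and 9 higher and 5 lower than germinating tissue (19.2% and 15.4%), which became 10 and 0 at equal sums (30.0% and 1.33%) and 0 and 0 for pairs with both names listed. No paired analysis was possible because the columns are means over replicates, and no replicate could be left out. Without depth or replicates, precision is unknown.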

Other observations

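Across the 36 pairs of the insulin pathway list, the stage with the highest mean differed between the species. Dormant tissue was highest for 16 pairs in *P. zorritensis* and for 4 in *C. lepadiformis*, where stolons were highest for 12 and germinating tissue for 9. Over paired transcripts with a mean of at least 5 in some stage, dormant tissue was highest for 19.0% in *P. zorritensis* and 7.82% in *C. lepadiformis*, where stolons were for 16.7% and germinating tissue for 17.4%. Germinating tissue was highest for 1 pair of the list in *P. zorritensis*, beside 19.1% of paired transcripts. Dormant tissue was the lowest stage for 11 pairs in *P. zorritensis* and for none of the pairs in *C. lepadiformis*, where germinating tissue was lowest for 15. Over paired transcripts the lowest stage was spherules for 31.4%, winter buds for 14.3% and germinating *C. lepadiformis* for 31.3%. With stages rescaled to equal sums, spherules were highest for 1 pair and lowest for 23, and winter buds were highest for 3 and lowest for 1. The matching shares of paired transcripts were not computed at that scaling, so these counts have no background. Past 2-fold lower in spherules at equal sums were 37.2% to 68.5% of paired transcripts, by contrast.

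From dormant to germinating tissue of *P. zorritensis*, MKNK2 had the lowest ratio of the 3 pair transcripts, at 0.354 for the pair transcript and 0.0530 for the transcript i1. In *C. lepadiformis* the MKNK2 pair transcript had a ratio of 1.51 over the same step. At equal sums these ratios of the pair transcript were 0.534 and 0.956, so that the direction turned in *C. lepadiformis*. Germinating tissue was also 0.426 times pre-bud for the MKNK2 pair transcript in *P. zorritensis* and 2.53 times pre-bud in *C. lepadiformis*, and the ratio for IRS1 in the latter was 5.55. At equal sums these were 0.381, 1.68 and 3.68. None of these ratios carries a replicate error.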
